A study of Mus musculus with 9 samples.

Results

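The livers of mice housed in microgravity were compared with those of ground control mice by counting, for each gene, reads in exons and reads in introns of the same RNA sequencing libraries. The comparison uses 6 of the 9 libraries of the study, chosen by their titles: the 3 microgravity libraries (MG 1 to MG 3) and the 3 ground control libraries (GC 1 to GC 3). Exon counts were available for 49585 gene rows, and intron reads were tested in the 49548 rows that are not mitochondrial transcripts. All mice were male C57BL/6J, 5 weeks old at purchase and 14 weeks old when sampled. MG mice came from the Jackson Laboratory, flew in a group of 6, lived on the International Space Station for about 35 days and were killed 2 days after splashdown. GC mice came from Charles River Laboratories in Japan and were kept for 35 days in matching housing at the JAXA Tsukuba Space Center, at 1 g. The other 3 libraries (AG 1 to AG 3) come from flight mice kept at 1 g in a centrifuge turning at 77 rpm, and enter here in the estimate of the spread and in the filter that sets which genes are tested. Microgravity, launch and landing, the days after landing and the supplier therefore cannot be told apart in this comparison. No label ties a library to an animal, so p-values measure the spread among libraries, part of which may be technical.

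A gene is first copied into a transcript that still holds its introns, and splicing then removes them. Intron reads in RNA depleted of ribosomal RNA come largely from young, unspliced transcripts and introns not yet degraded, whereas exon reads come mostly from mature mRNA that can persist long after its synthesis. The liver makes fatty acids, cholesterol, plasma proteins and urea, burns fatty acids in fasting, and in mice carries many genes whose level differs between males and females through the pattern of growth hormone release. In bulk tissue, fewer cells of a type and less RNA per cell cannot be told apart.

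Exon counts per library lay between 6194521 (GC 2) and 8957331 (MG 1), and unique intron reads outside mitochondrial rows between 1768364 (GC 2) and 3206301 (MG 1). Intron reads made up 23.5 ± 0.523% (SD, n = 3) of exon plus intron reads in GC and 24.3 ± 2.41% (SD, n = 3) in MG, with MG 1 at 26.9%, MG 2 at 23.8% and MG 3 at 22.2%. This difference of 0.876 percentage points was within the spread between libraries (exact permutation test, two-sided p = 0.8, where 0.1 is the smallest p that 3 against 3 libraries allow). All 8 hepatocyte markers had reads in both groups, with a summed exon level of 94657 to 110103 CPM (counts per 1e6 reads, scaled between libraries) in GC and 117144 to 127386 CPM in MG. Skeletal muscle transcripts set some libraries apart: the summed exon level of 10 muscle markers was 212 CPM in GC 1, 600 CPM in GC 2 and 399 CPM in MG 2, but 0.600 CPM in GC 3, 0.791 CPM in MG 1 and 1.06 CPM in MG 3. Macrophage markers, 8 genes, summed to 231 to 241 CPM in GC and 194 to 220 CPM in MG, and 5 bile duct markers to 36.9 to 47.1 CPM in GC and 28.3 to 28.8 CPM in MG. Macrophage intron levels were 109 to 139 CPM in GC and 82.2 to 87.5 CPM in MG. For hepatocyte and macrophage markers the groups did not overlap in summed exon or intron levels, and for bile duct markers not in exon levels. The 5 erythroid markers summed to 278 to 545 exon CPM in GC and 242 to 290 CPM in MG, with a median log2 fold change of -0.55, and Alas2, the erythroid heme synthesis enzyme, fell. No other marker gene was called, and the part of muscle or other cells in the results below was not tested.

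**Figure D1:**
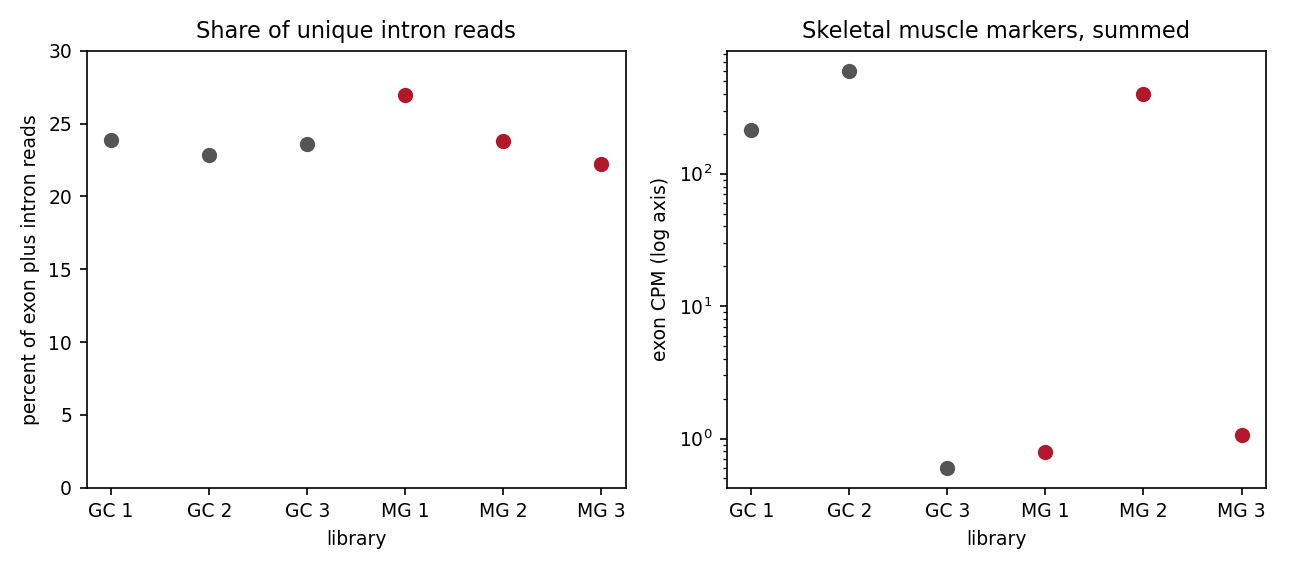
Library by library, the left panel plots unique intron reads as a percentage of exon plus intron reads (linear axis from 0), and the right panel the summed exon CPM of 10 skeletal muscle markers (log axis). Grey points are GC and red points MG libraries; MG 1 has the highest intron share at 26.9%, and GC 1, GC 2 and MG 2 hold muscle transcripts at 212, 600 and 399 CPM.

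Few genes were called in both kinds of read, and most members of every gene list described below were not. Among those called in both, Fasn and Thrsp of fatty acid synthesis and 4 of the listed male-biased genes fell in MG livers. Cyp4a14 and Abcd2 of fatty acid use and Socs2 of growth hormone feedback rose in both. In exon counts 165 of 11884 tested genes (1.39%) were called, 65 of them higher (0.547%) and 100 lower (0.841%) in MG, by the quasi-likelihood test of edgeR with p-values adjusted by Benjamini-Hochberg and a threshold of 0.05. In intron reads 70 of 10778 tested genes (0.649%) were called, 34 higher (0.315%) and 36 lower (0.334%). When intron reads were scaled by the exon totals instead of their own, 79 were called higher and 41 lower, and the median over all genes moved to 0.18 on the log2 scale, so intron changes here are relative to all intron reads. The typical standard error of a log2 fold change was wider in intron reads (median 0.23) than in exon counts (median 0.17).

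Of 9609 genes tested in both, 27 (0.281%) were called in both, 12 higher and 15 lower, and 0 were called in opposite directions. These 27 are 16.4% of the exon calls and 38.6% of the intron calls; among genes tested in both, 1.43% were called in exon counts and 0.645% in intron reads. Both measures come from the same libraries, so they are not independent. A library that deviates can do so in both, but need not. Those that fell in both included Fasn, Thrsp, Serpina1e, Selenbp2, Mup1, Mup11, Mup14, Mup16, Cyp2d9, C4a, C6, Ces2c, Cdh1 and Tlcd2. Few reads stand behind the intron call of Ces2c, with a mean of 8.5 per GC and MG library. The genes that rose in both were Cyp4a14, Abcd2, Socs2, Wsb1, Cyp2c38, Trp53inp1, Abhd2, Ildr2, Adamts6, Kng2, Pcsk5 and Abcg5. For each of the 27 the groups were free of overlap in either kind of read. This held for all 165 exon calls and all 70 intron calls, so it came with the calls and adds nothing about the 27. Groups were also free of overlap for 23.2% of all genes tested in exon counts and 18% of those tested in intron reads.

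**Figure D2:**
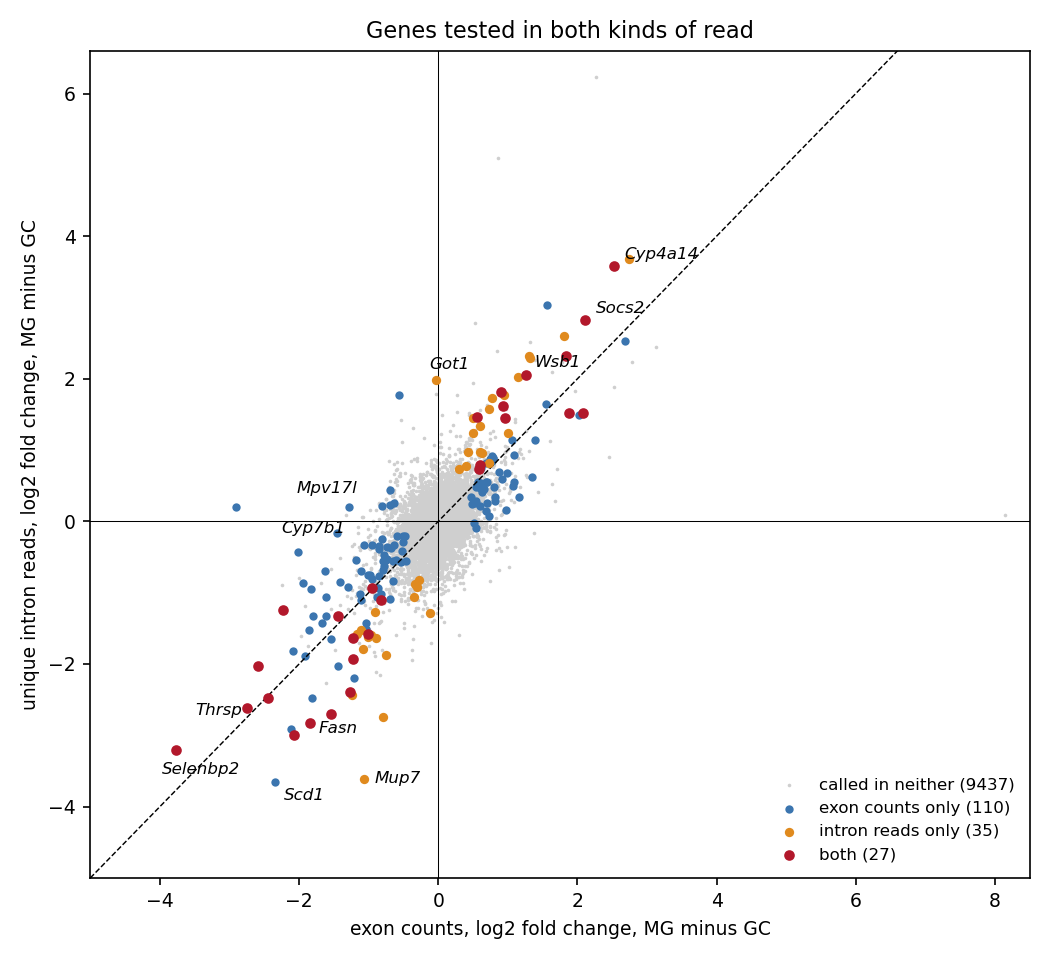
Each point is 1 of 9609 genes tested in both kinds of read, with the log2 fold change (MG minus GC) of exon counts on the x axis and of unique intron reads on the y axis; the dashed line marks equal change. Genes called in both (27, red) lie in the lower left and upper right, genes called in exon counts only (110) are blue, genes called in intron reads only (35) are orange, and Got1, Mpv17l and Mup7 lie away from the line.

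The difference between the intron change and the exon change was also tested itself, in a model with the library as a block. It passed the threshold for 3 of 9510 genes (0.0315%), Got1 and Mpv17l with the intron change above the exon change (0.021%) and Mup7 with it below (0.0105%), while 719 (7.56%) had an unadjusted p below 0.05. With 1 common scale for exon and intron reads of a library, 6 genes were called with the intron change above the exon change and 1 below, against 2 and 1 with separate scales. For the other genes called in only 1 kind of read and given this test, the difference itself did not pass. Genes with enough reads of only 1 kind were not given it.

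Fatty acid synthesis showed the fall in both kinds of read at its central enzyme. Fasn, the fatty acid synthase on chromosome 11 (GRCm38, chr11:120805846-120824547, minus strand), had 952, 1120 and 1769 CPM of exon counts in GC 1 to GC 3 and 337, 398 and 336 CPM in MG 1 to MG 3. Its intron reads stood at 197, 286 and 421 CPM in GC and at 52.0, 29.3 and 45.3 CPM in MG. Every MG library was below every GC library in both, and GC 3 was the highest of all. The log2 fold change was -1.84 ± 0.34 (SE) in exon counts (adjusted p = 0.0259 in edgeR) and -2.83 ± 0.43 in intron reads (adjusted p = 0.0166 in edgeR). The 95% interval of the difference, intron minus exon, ran from -1.77 to -0.21, but its adjusted p was 0.486 in edgeR.

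Thrsp, a nuclear protein that promotes lipogenesis, lay at 809, 937 and 1169 exon CPM in GC and at 187, 130 and 118 CPM in MG. Its intron reads were at 391, 380 and 304 CPM in GC and 71.3, 60.6 and 42.3 CPM in MG. The groups were far apart in both, with log2 fold changes of -2.74 ± 0.57 (exon) and -2.61 ± 0.37 (intron). Of 21 tested genes of fatty acid and triglyceride synthesis (22 listed), 8 fell in exon counts, 0 rose and 13 were not called, with a median log2 fold change of -0.78 against 0.01 over all genes tested. Of 20 tested in intron reads, Fasn and Thrsp fell, 0 rose and 18 were not called, with a median of -0.74 against 0.00 over all. Among those called in exon counts only were Acly, which makes cytosolic acetyl-CoA (exon -1.05 ± 0.18, intron -1.42 ± 0.34), and Acaca, the acetyl-CoA carboxylase (exon -0.99 ± 0.17, intron -0.75 ± 0.32).

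Cholesterol genes had negative fitted changes in both kinds of read, but most members did not pass the test, and most that passed in one did not pass in the other. Of 25 tested genes that make or take up cholesterol, 5 fell in exon counts, among them Pmvk, Idi1, Msmo1 and Dhcr7, and 20 were not called. Of 24 tested in intron reads 4 fell, among them Mvk and Lss, and 20 were not called. The median log2 fold change was -1.05 in exon counts and -1.30 in intron reads, and all 25 and all 24 fitted values were negative.

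The enzymes Mvk, mevalonate kinase, and Lss, which closes the sterol ring, were called in intron reads alone. Intron counts of Mvk were 30, 27 and 31 reads in GC and 15, 11 and 12 in MG, and those of Lss 53, 21 and 56 in GC and 28, 14 and 7 in MG. For Mvk the log2 fold change was -1.58 ± 0.31 in intron reads and -1.16 ± 0.36 in exon counts (edgeR adjusted p = 0.0464 and 0.162). For Lss it was -1.79 ± 0.34 in intron reads and -1.08 ± 0.24 in exon counts (edgeR adjusted p = 0.0394 and 0.0573). These genes lost reads of both kinds in the point estimates, with few intron reads behind each value. Msmo1, a sterol demethylating enzyme, was at -2.12 ± 0.43 in exon counts and at -2.91 ± 0.60 in intron reads, where its edgeR adjusted p was 0.0569.

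Promoters are shown for 4 of the lipid synthesis genes that fell in intron reads. Whether the fall arose at the promoter was not tested. Each sequence is the 250 bases before the RefSeq start on GRCm38.p6, read 5′ to 3′ on the strand of the gene, and capitals mark CCAAT or its reverse complement ATTGG, the box bound by the factor NF-Y. The regions are chr11:120824548-120824797 (minus strand) for Fasn, chr7:97417551-97417800 (minus) for Thrsp, chr5:114444019-114444268 (plus) for Mvk and chr10:76531355-76531604 (plus) for Lss.
Fasn: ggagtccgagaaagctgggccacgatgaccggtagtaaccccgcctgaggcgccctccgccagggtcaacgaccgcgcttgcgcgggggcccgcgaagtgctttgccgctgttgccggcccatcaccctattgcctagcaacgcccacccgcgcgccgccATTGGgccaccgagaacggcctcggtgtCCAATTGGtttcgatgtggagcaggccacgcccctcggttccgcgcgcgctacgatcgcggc
Thrsp: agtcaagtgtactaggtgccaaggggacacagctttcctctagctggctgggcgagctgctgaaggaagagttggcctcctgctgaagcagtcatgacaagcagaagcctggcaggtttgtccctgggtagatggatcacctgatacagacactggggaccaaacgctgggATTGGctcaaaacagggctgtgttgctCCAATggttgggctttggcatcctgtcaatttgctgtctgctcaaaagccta
Mvk: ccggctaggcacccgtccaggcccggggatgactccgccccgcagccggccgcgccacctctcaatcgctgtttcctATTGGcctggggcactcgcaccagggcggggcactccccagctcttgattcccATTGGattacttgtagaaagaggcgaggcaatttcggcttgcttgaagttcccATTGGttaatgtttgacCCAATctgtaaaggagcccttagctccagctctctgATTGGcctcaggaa
Lss: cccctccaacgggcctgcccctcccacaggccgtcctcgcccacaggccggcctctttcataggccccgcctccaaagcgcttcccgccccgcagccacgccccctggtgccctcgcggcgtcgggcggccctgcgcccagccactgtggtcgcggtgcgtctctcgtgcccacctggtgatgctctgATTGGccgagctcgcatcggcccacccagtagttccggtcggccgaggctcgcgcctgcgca
Fasn holds 3 matches, of which the pair nearest the start overlaps in the run CCAATTGG, Thrsp holds 2, Mvk 5 and Lss 1. On either strand the box was found in 36.2% of the 9792 promoters of tested genes with an entry. It was found in 15 of 17 promoters of tested cholesterol genes and in 9 of 18 of tested fatty acid synthesis genes. Of the 15 genes that fell in both kinds of read 10 had an entry, and 8 of these held the box. Mup11 and Mup14 among the 8 belong to the same cluster of near-identical genes. Of the 12 genes that rose in both 7 had an entry, and 1 of these held it. The letters TCACNCCAC, one form of the sterol response element, were found in 1.04% of promoters and in 0 of the 10 that fell in both, and CACGTG, the E-box, in 8.35% and in 2 of the 7 that rose in both, Ildr2 and Wsb1. These are matches of letters in a short window, not sites shown to be used.

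Among genes of fatty acid use, Cyp4a14 and Abcd2 rose in both kinds of read. Cyp4a14, a fatty acid hydroxylase induced through PPAR-alpha, stood at 430, 214 and 308 exon CPM in GC and 1185, 2093 and 2202 CPM in MG. Its intron reads were at 37.7, 11.8 and 25.02 CPM in GC and 81.2, 447 and 401 CPM in MG. All MG libraries were above all GC libraries, with MG 1 the lowest of the MG libraries in both, and the log2 fold changes were 2.52 ± 0.39 (exon) and 3.58 ± 0.71 (intron). Abcd2, which carries very long chain fatty acids into peroxisomes, rose by 1.88 ± 0.26 in exon counts and 1.53 ± 0.26 in intron reads on the log2 scale.

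Among the 31 tested members of a list of beta-oxidation genes and targets of PPAR-alpha, 8 rose in exon counts, Fabp1 fell and 22 were not called, with a median of 0.46. Of 26 tested in intron reads, Cyp4a14 and Abcd2 rose and 24 were not called, with a median of 0.41. The 6 others that rose in exon counts were Acadl and Acadm, dehydrogenases of mitochondrial beta-oxidation, the thioesterases Acot3 and Acot4, the fatty acid carrier Cd36 and the pantetheinase Vnn1. Vnn1 had 17, 57 and 27 intron reads in MG and 7, 1 and 2 in GC, and Acot3 29, 35 and 47 against 12, 2 and 2. Both were short of the threshold in intron reads, with edgeR adjusted p = 0.0569 and 0.0575. Their groups did not overlap, which also held for 18% of all genes tested in intron reads. Acadm was at 0.70 ± 0.13 in exon counts and 0.55 ± 0.18 in intron reads, and Acadl at 0.54 ± 0.09 and 0.49 ± 0.16.

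Of the listed sex-biased genes, 4 male-biased genes fell and the female-biased Abcd2 rose in both kinds of read. The lists do not hold all such genes: Mup1, Mup11, Mup14 and Mup16, described below, are not among them. Of 18 tested male-biased genes 11 fell in exon counts, 0 rose and 7 were not called, with a median log2 fold change of -1.04. Of 16 tested in intron reads 7 fell, 0 rose and 9 were not called, with a median of -0.98. Selenbp2, Serpina1e, Cyp2d9 and C6 fell in both. Selenbp2, a selenium binding protein, had 791, 865 and 1152 exon CPM in GC and 166, 23.3 and 15.98 CPM in MG, and 70.2, 174 and 223 intron CPM in GC and 26.9, 16.2 and 4.43 CPM in MG. MG 1 was the highest of the MG libraries in both, still below each GC library. Serpina1e, an alpha-1 antitrypsin, had log2 fold changes of -2.59 ± 0.38 (exon) and -2.02 ± 0.40 (intron), and the P450 gene Cyp2d9 of -0.82 ± 0.13 and -1.10 ± 0.16. Of the exon reads of Selenbp2, 61.4% mapped uniquely and of those of Serpina1e 75.1%.

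Major urinary proteins, pheromone carriers made in quantity by the male liver, come from a cluster of near-identical genes, so that exon counts can be split between copies. Mup1, Mup11, Mup14 and Mup16 fell in both kinds of read, and Mup3, Mup7, Mup12 and Mup17 in intron reads only. In exon counts only, Mup2, Mup18 and Mup21 fell, and so did Mup8, which had too few intron reads to be tested; Mup21 was at -1.86 ± 0.27 in exon counts and -1.52 in intron reads (edgeR adjusted p = 0.277). Uniquely mapped reads accounted for 11.01% of all exon reads of Mup1, 25.1% for Mup11, 15.8% for Mup14, 8.34% for Mup16 and 29.3% for Mup7, against 99.1% for Mup3. Mup11 had 358, 259 and 197 unique intron reads in GC and 140, 96 and 110 in MG, a log2 fold change of -1.58 ± 0.20, against -1.02 ± 0.12 in exon counts. Mup3 went from 321, 380 and 366 intron CPM in GC to 199, 158 and 153 CPM in MG (-1.06 ± 0.17) with exon counts at -0.34 ± 0.12, where it was not called.

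Of 18 listed female-biased genes only 10 had enough exon counts to be tested and 9 enough intron reads, so values cover these alone. The filter keeps a gene that is high enough in the libraries of 1 group. A gene low in GC, such as Cux2 in exon counts, could thus enter through MG or AG, which can raise the medians of this list. In exon counts Abcd2 and Acot3 rose, and in intron reads Abcd2, Fmo2 and Cux2 rose, with medians of 1.52 and 2.23. Cux2, a transcription factor found in the female liver, had 23, 11 and 18 intron reads in GC and 243, 322 and 253 in MG, while its exon counts were 5, 6 and 9 in GC and 29, 43 and 80 in MG. The intron change was 3.68 ± 0.69 and the exon change 2.74 ± 1.07, which did not pass the test. Fmo2, a flavin monooxygenase, was at 2.03 ± 0.23 in intron reads and 1.15 ± 0.35 in exon counts. Its neighbour Fmo1 was at 1.24 ± 0.14 in intron reads, from 123, 116 and 115 CPM to 288, 299 and 250 CPM, and at 0.49 ± 0.18 in exon counts. Cyp2c38, a P450 gene, rose in both, from 32.4, 32.0 and 32.6 exon CPM to 113, 113 and 119 CPM, with little spread inside either group.

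Of 14 tested genes of growth hormone and STAT5 signalling, Socs2 rose and Igfbp2 fell in exon counts and 12 were not called. Of 11 tested in intron reads Socs2 and Igfbp1 rose and 9 were not called. Socs2, the inhibitor that growth hormone itself induces through STAT5, rose in both. Its exon level went from 19.0, 10.7 and 5.40 CPM in GC to 63.1, 49.7 and 41.7 CPM in MG, and its intron reads from 19, 8 and 8 to 137, 161 and 29. The log2 fold changes were 2.11 ± 0.42 and 2.83 ± 0.50. Igfbp1, an IGF binding protein induced in fasting, was called in intron reads (2.60 ± 0.35, edgeR adjusted p = 0.00881) and not in exon counts (1.80 ± 0.47, edgeR adjusted p = 0.103). Its intron level was 44.0, 60.2 and 21.4 CPM in GC and 226, 297 and 236 CPM in MG. Prlr, the prolactin receptor, followed the same order, at 2.29 ± 0.43 in intron reads (called) and 1.32 ± 0.30 in exon counts (edgeR adjusted p = 0.0614). Igf1, the main hormone made in response to growth hormone, showed exon levels of 748, 671 and 685 CPM in GC and 762, 624 and 665 CPM in MG, overlapping groups. Its intron reads were at 210, 350 and 440 CPM in GC and 929, 2218 and 303 CPM in MG, where MG 3 lay among the GC libraries, and the intron change of 1.79 ± 0.62 did not pass the test.

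**Figure D3:**
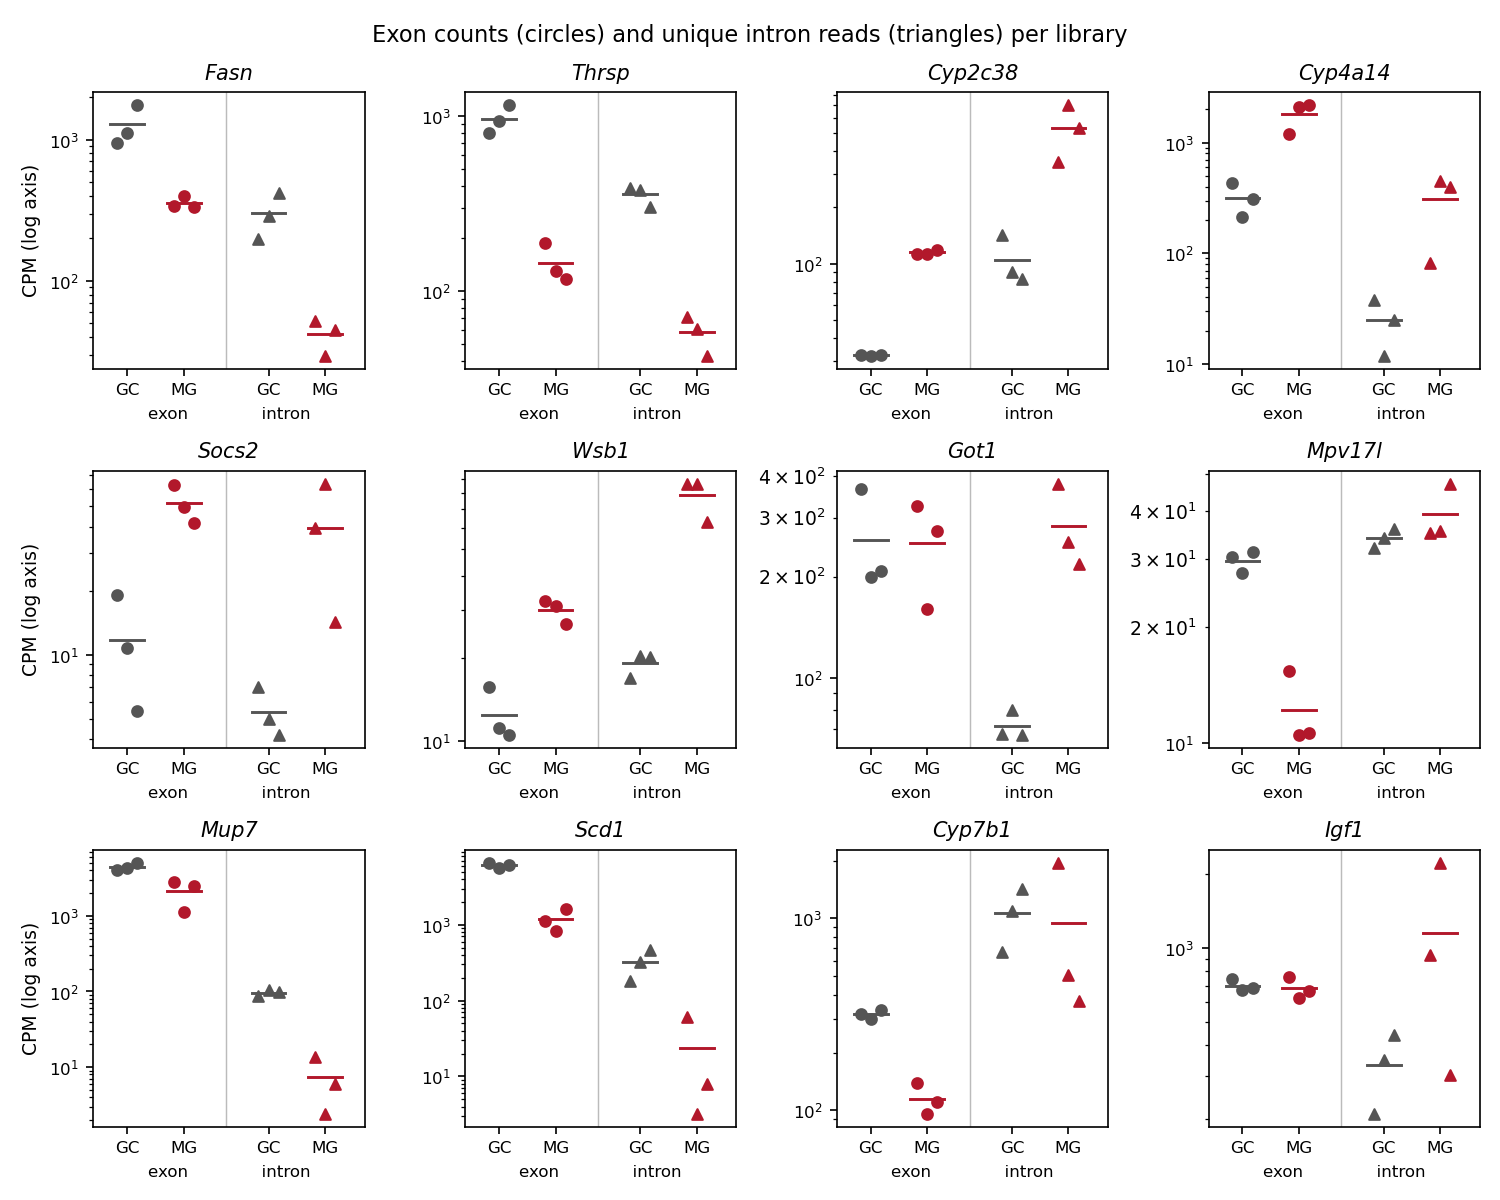
For 12 genes, the plot shows CPM on a log axis in each GC library (grey) and MG library (red), exon counts as circles on the left and unique intron reads as triangles on the right of each panel; short lines are group means. Fasn and Thrsp are lower and Cyp2c38, Cyp4a14, Socs2 and Wsb1 higher in MG in both kinds of read, whereas Got1 differs in intron reads, Mpv17l in exon counts, and Igf1 and Cyp7b1 spread widely over the MG libraries in intron reads.

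Exon and intron changes parted past the threshold in 3 genes. Got1 (ENSMUSG00000025190, chr19:43499752-43524605, minus strand), the cytosolic aspartate aminotransferase, had overlapping exon levels of 366, 200 and 208 CPM in GC and 325, 160 and 274 CPM in MG. Its intron level was 68.0, 80.1 and 67.2 CPM in GC and 379, 253 and 218 CPM in MG, with no overlap. The exon change was -0.03 ± 0.30 and the intron change 1.99 ± 0.31, and their difference was 2.00 (95% interval 1.24 to 2.75, edgeR adjusted p = 0.0266). Reads over exon junctions, which come from spliced RNA, gave -0.04 for Got1.

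Mpv17l (ENSMUSG00000022679, chr16:13903161-13949619, plus strand), a protein of the peroxisomal and mitochondrial Mpv17 family, was the opposite case, with a change in exons and not in introns. Its exon level was 30.4, 27.6 and 31.4 CPM in GC and 15.4, 10.4 and 10.6 CPM in MG, a log2 fold change of -1.29 ± 0.20. Its intron level was 32.2, 34.1 and 36.0 CPM in GC and 35.2, 35.7 and 47.3 CPM in MG, overlapping, at 0.20 ± 0.18. The difference was 1.49 (95% interval 0.92 to 2.06, edgeR adjusted p = 0.0266), and junction reads gave -1.43.

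Mup7 (ENSMUSG00000073842, chr4:60066469-60070475, minus strand) changed more in introns than in exons. Its intron reads numbered 237, 167 and 187 in GC and 47, 6 and 12 in MG, a log2 fold change of -3.62 ± 0.44. Exon levels were 4033, 4239 and 5065 CPM in GC and 2774, 1114 and 2472 CPM in MG, at -1.07 ± 0.27, which did not pass the test (edgeR adjusted p = 0.0959). The difference was -2.68 (95% interval -3.54 to -1.82, edgeR adjusted p = 0.00917). With unique exon reads in place of the deposited exon counts it was -2.65, although only 29.3% of the exon reads of Mup7 map uniquely.

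The calls of these differences were lost when any of several libraries was left out, which also leaves fewer libraries to test, while their sizes moved less. None of the 3 passed without GC 1, GC 2 or MG 2, where 625, 564 and 524 genes had an unadjusted p below 0.05 in edgeR. Got1 also lost its call without GC 3 or MG 1, and Mpv17l without GC 3 or MG 3. Over the 9 fits that leave out 1 library, the difference test called 0 to 12 genes, the latter without AG 3. Across all settings tried, the difference stayed between 1.59 and 2.25 for Got1, between 1.27 and 1.78 for Mpv17l and between -3.24 and -2.36 for Mup7. Just short of the threshold lay Esr1, the estrogen receptor alpha, with intron reads at 1.16 ± 0.27 and exon counts at -0.21 ± 0.30 (edgeR adjusted p of the difference 0.0572), and the unnamed transcript 1500017E21Rik, with exon counts at -2.91 ± 0.33 and intron reads at 0.21 ± 0.49 (0.0572). Only 4, 11 and 10 intron reads in GC and 17, 15 and 7 in MG stand behind the last.

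Of 137 genes called in exon counts and tested in intron reads, 110 were not called in intron reads, 45 of them higher and 65 lower in exon counts. Of these 110, 34 had a mean below 50 intron reads per library. Scd1, a stearoyl-CoA desaturase, is one whose intron reads pointed the same way but scattered: 182, 319 and 460 CPM in GC and 60.1, 3.17 and 7.88 CPM in MG, at -3.65 ± 1.00, beside -2.34 ± 0.30 in exon counts. Elovl6, which elongates palmitate, fell by 1.83 ± 0.22 in exon counts, while its intron level of 346, 289 and 433 CPM in GC overlapped that of 304, 136 and 113 CPM in MG. For both, MG 1 was the highest MG library in intron reads.

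Cyp7b1, a male-biased oxysterol hydroxylase, had exon levels of 319, 298 and 333 CPM in GC and 139, 95.5 and 111 CPM in MG, at -1.46 ± 0.17. Its intron level was 667, 1090 and 1423 CPM in GC and 1951, 504 and 371 CPM in MG, so that MG 1 was above and MG 2 and MG 3 below every GC library. The difference, 0.97 with a 95% interval from -0.22 to 2.17, did not pass the test. Nnt, the mitochondrial transhydrogenase known to differ between C57BL/6 substrains, rose from 54.1, 52.5 and 57.03 exon CPM to 91.2, 86.9 and 84.8 CPM, with intron levels of 116, 79.4 and 79.2 CPM against 93.9, 112 and 101 CPM. Here the exon libraries were apart and the intron libraries overlapped, with a difference of -0.53 (95% interval -0.95 to -0.10, edgeR adjusted p = 0.501).

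Retsat, retinol saturase, rose in exon counts by 1.16 ± 0.14 and was at 0.34 ± 0.28 in intron reads. Hp, haptoglobin, rose by 0.72 ± 0.13 in exon counts and was at 0.07 ± 0.30 in intron reads, and Igfbp2, an IGF binding protein, fell by 1.18 ± 0.15 in exon counts and was at -0.55 ± 0.31 in intron reads. None of these passed the test of the difference. A further 28 genes called in exon counts had too few intron reads to be tested. They include Apoa4, an apolipoprotein of intestine and liver, at 108, 59.7 and 46.4 exon CPM in GC and 487, 732 and 904 CPM in MG and with 2, 2 and 0 intron reads in GC and 5, 7 and 7 in MG. Hsd11b1, Lcat, Ugt1a1 and Alas2 are listed at 0 intron reads in all 6 libraries, although each had exon counts in all of them.

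In the other direction, 35 genes tested in both were called in intron reads and not in exon counts, 19 higher and 16 lower. Mat1a, which makes the methyl donor S-adenosylmethionine, had 745, 465 and 424 intron CPM in GC and 1420, 1361 and 1367 CPM in MG, a log2 fold change of 1.34 ± 0.23. Its exon level was 2733, 2270 and 2576 CPM in GC and 4131, 3541 and 3805 CPM in MG, at 0.60 ± 0.19 (edgeR adjusted p = 0.175). Neither kind of read overlapped between the groups, which also held for 23.2% of all tested genes in exon counts and 18% in intron reads. The difference did not pass the test (0.79, 95% interval 0.14 to 1.43). Irs2, an adaptor of the insulin receptor, was at 1.74 ± 0.26 in intron reads and 0.78 ± 0.31 in exon counts. The glucocorticoid-induced transcription factor Klf9 was at 0.77 ± 0.14 and 0.39 ± 0.18, the vitamin E transfer protein Ttpa at 0.95 ± 0.17 and 0.63 ± 0.18, and Insig2, which retains SREBP in the endoplasmic reticulum, at 1.24 ± 0.24 and 1.00 ± 0.32.

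Abcg5 and Abcg8, the sterol exporter pair, lie head to head on opposite strands and overlap, so their reads cannot be told apart where strand was not used. In intron reads Abcg5 was at 1.46 ± 0.28 and Abcg8 at 1.45 ± 0.24, both called, and in exon counts at 0.56 ± 0.11 (called) and 0.50 ± 0.14 (not called). Of the 70 genes called in intron reads 7 overlap another row with a mean of at least 10 exon counts, against 1847 of all 10778 tested genes. Among the 7 are Prkca, which overlaps Apoh, and Tlcd2, a gene that fell in both. A further 8 genes were called in intron reads without enough exon counts to be tested. Nxph1, a neurexin ligand, had 37, 30 and 40 intron reads in GC and 226, 284 and 243 in MG, against 1, 0 and 0 exon counts in GC and 0, 2 and 0 in MG. Aoc1, an amine oxidase, had 54, 17 and 10 intron reads in GC and 197, 239 and 137 in MG, with 2 exon counts over all 3 GC libraries and 0 in MG. For these genes the reads lie inside the span of the gene but almost none in its exons. The others were Spata3, which rose, and Gm45466, Nat8f6, Hcrtr2, Grm8 and 0610040F04Rik, which fell.

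Wsb1, a substrate receptor of a ubiquitin ligase whose transcript is known for introns kept in the nucleus, rose in both kinds of read. Its exon level was 15.7, 11.2 and 10.51 CPM in GC and 32.4, 31.0 and 26.8 CPM in MG, and its intron level 17.001, 20.5 and 20.3 CPM in GC and 86.6, 86.8 and 63.0 CPM in MG. The log2 fold changes were 1.26 ± 0.21 and 2.05 ± 0.20. It was the only one called of 27 tested genes with detained introns or of the splicing machinery in exon counts, and of 26 in intron reads, where the list medians were 0.08 and 0.03. Clk1, a splicing kinase with detained introns, was at 0.02 ± 0.17 in exon counts and 0.00 ± 0.15 in intron reads.

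Median changes were compared over 23 gene lists. Urea cycle and amino acid genes had a median of -0.17 in 24 exon-tested genes, 0 of them called, and of 0.39 in 22 intron-tested genes, of which Got1 and Mat1a rose. Acute phase genes had a median of 0.13 in 24 exon-tested genes (Hp, Lbp and Cp rose, Orm1 fell) and of 0.45 in 18 intron-tested genes, with 0 called. Heat shock and unfolded protein genes had 0 called in either, with medians of -0.09 over 24 and -0.34 over 18 genes. Over all tested genes the medians were 0.01 in exon counts and 0.00 in intron reads.

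**Figure D4:**
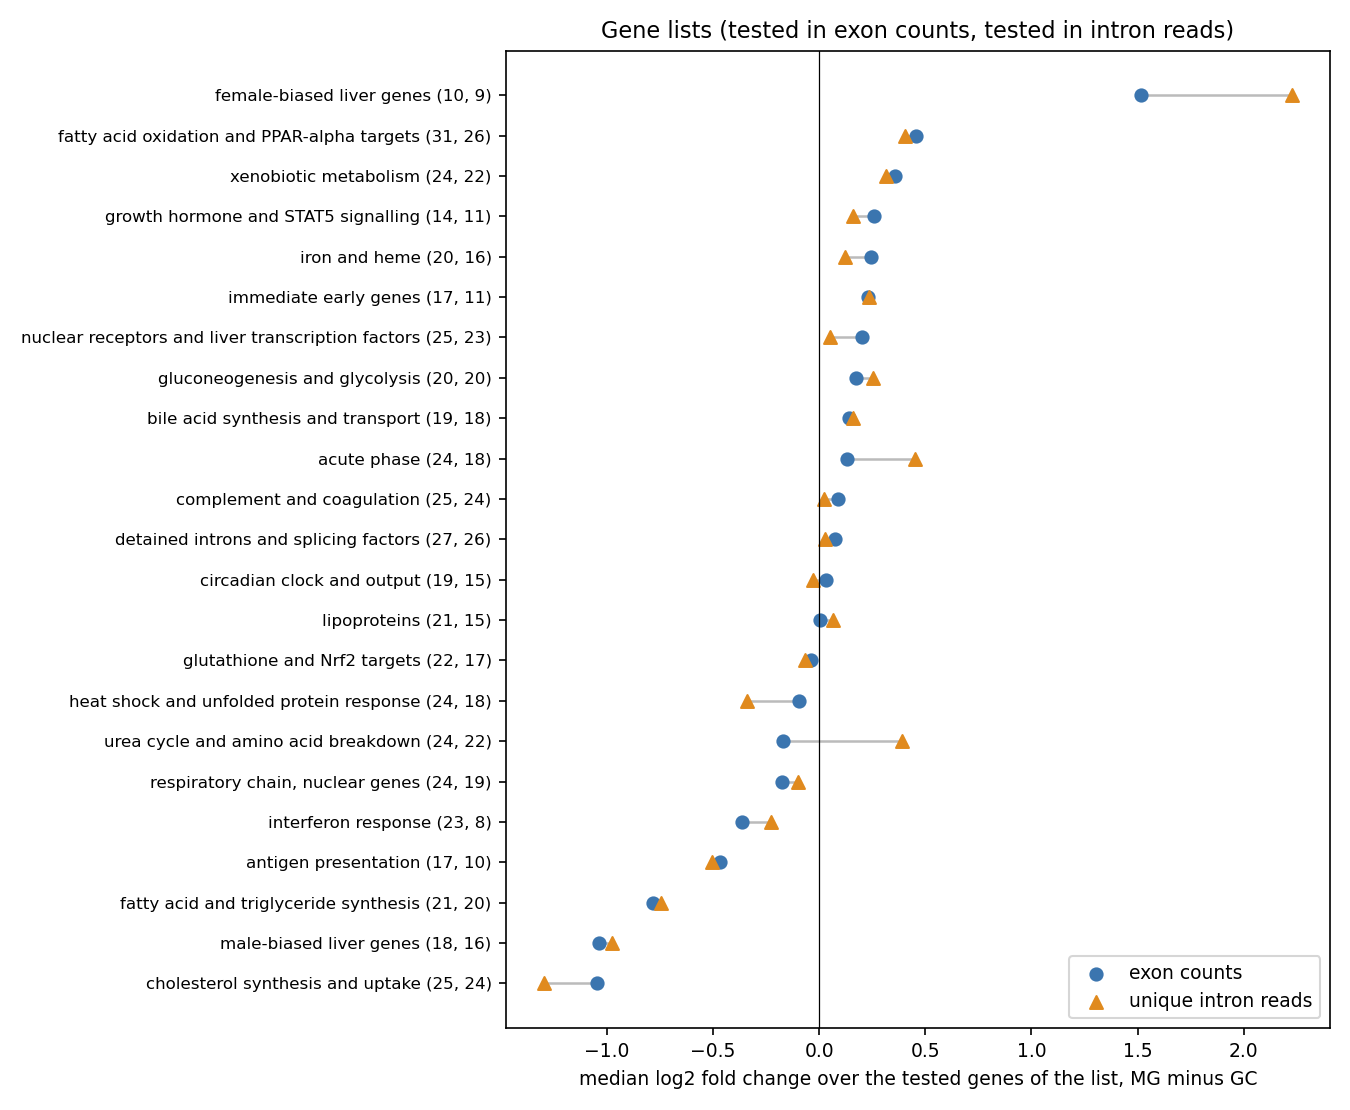
Median log2 fold change (MG minus GC) over the tested genes of each of 23 gene lists, exon counts as blue circles and unique intron reads as orange triangles, with the numbers of genes tested in brackets. Cholesterol synthesis genes are lowest at -1.05 (exon) and -1.30 (intron), and urea cycle genes show medians on different sides of 0. Female-biased genes are highest at 1.52 and 2.23, over the 10 and 9 of 18 that passed a filter which a gene high in MG or AG alone can pass.

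In other lists, genes were called in exon counts with few or none in intron reads. Of 25 tested genes of complement and coagulation, C3 rose and C4a, C6, C8b and C9 fell in exon counts, and C4a and C6 also fell among the 24 tested in intron reads. Of 24 tested genes of xenobiotic metabolism 2 rose and 3 fell in exon counts, and of 22 in intron reads Cyp2c37, a P450 gene, rose (1.57 ± 0.30). Of 22 tested glutathione and Nrf2 genes, Tkt, Pgd, Gstm3 and Gsta1 fell in exon counts, and 0 of 17 were called in intron reads. Of 21 tested lipoprotein genes, Apoa4, Apoh, Lipc and Lcat rose in exon counts, and 0 of 15 were called in intron reads. Tkt, transketolase, was at -0.64 ± 0.10 in exon counts and -0.84 ± 0.18 in intron reads (edgeR adjusted p = 0.0575), and Lipc, hepatic lipase, at 0.55 ± 0.09 and 0.28 ± 0.28.

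The number of calls shifted in both kinds of read when 1 library was left out, which also leaves fewer libraries to test. Leaving out a ground library lowered the 165 exon calls to 52 (GC 1), 21 (GC 2) or 51 (GC 3), and leaving out a microgravity library to 108 (MG 1), 28 (MG 2) or 63 (MG 3). Leaving out AG 1, AG 2 or AG 3 gave 290, 146 and 273. The 70 intron calls became 38 (GC 1), 11 (GC 2), 10 (GC 3), 56 (MG 1), 8 (MG 2), 26 (MG 3), 115 (AG 1), 47 (AG 2) or 161 (AG 3) when the library in brackets was left out. Of the 27 genes called in both, 7 remained so without GC 1, 1 each when GC 2, GC 3 or MG 2 was left out, 12 without MG 1, and 6 in the fit that lacks MG 3. Leaving out AG 2 kept 15, and leaving out AG 1 or AG 3 kept all 27. Genes called in each of the 9 fits numbered 18 in exon counts, among them Cdh1, Ces2c, Cyp2c38, Scd1, Elovl6 and Cyp7b1, and 6 in intron reads, which were Fmo1, Fmo2, Mup7, Mup14, Nxph1 and Wsb1.

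Without the libraries that hold muscle transcripts, GC 1, GC 2 and MG 2, only GC 3 was left as a ground library, its spread is assumed to equal that of the others, and 0 genes were called in exon counts or intron reads (541 and 535 at an unadjusted p below 0.05 in edgeR). Fasn, Cyp4a14, Socs2 and Wsb1 did not overlap between the groups in either kind of read, so this fit could hardly reverse their direction. Only sizes are given for them, measured against GC 3 alone. Fasn was then at -2.40 in exon counts and -3.11 in intron reads, Cyp4a14 at 2.45 and 3.25, Socs2 at 3.27 and 2.72 and Wsb1 at 1.49 and 1.88. The difference of the intron and exon changes was 1.59 for Got1, 1.45 for Mpv17l and -2.36 for Mup7.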

How the data were processed

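The submitters extracted total RNA from powdered liver, depleted ribosomal RNA and sequenced on a NextSeq 500, per the labels' protocols. They deposited 1 gene table with raw read counts per library, per the file headers. Its builds are GRCm38 and mm10, per the submitters' processing notes; no source used here gives the aligner, the counting tool or the use of strand. The deposited counts used were the expression values (exon counts) and the unique intron reads, with unique exon and junction reads as alternatives, and 90 other per-library columns were not used. Rows of mitochondrial transcripts (37), which held 31.6% to 46.1% of the deposited unique intron reads of GC and MG libraries, were left out of the intron and difference tests and kept in the exon test.

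Counts were filtered with filterByExpr by group, scaled by TMM and fitted with edgeR 4.0.16 (quasi-likelihood) in R 4.3.3 over all 9 libraries, with 1 mean for each of 3 groups and 6 residual degrees of freedom, so that AG libraries add to the filter and to the estimate of the spread. The contrast was MG minus GC, called at a Benjamini-Hochberg adjusted p below 0.05. The difference test put exon and intron counts of a library side by side, with the library as a block. CPM use TMM-scaled totals; a count of 3 reads, the floor of detection for counting error only, corresponds to 0.339 to 0.473 exon CPM and 0.866 to 1.86 intron CPM in GC and MG libraries. The tests were tested on simulated counts with 200 changed genes.

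Named were, in each test, up to 8 called genes each way with the largest change, a mean count of at least 50 and no overlap between groups, likewise 8 each way called in both, up to 4 called members of each list, and fixed genes; others were added after their values were seen. The comparison, its members and the 33 gene lists, 7 of them marker lists, were chosen with earlier results of these data known. Gene starts in the table count from 0 and were raised by 1. Alternatives used DESeq2 1.42.0 and limma 3.58.1; other work used Python 3.11.15, pandas 2.3.3 and matplotlib 3.10.9. Some genes of the lists are counted but not reported here by name.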

Additional observations from a re-analysis of the deposited data

How the results depend on the processing

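Exon calls, 165, were 278 with no filter on low counts, 375 with GC and MG libraries only, 394 with DESeq2 and 0 without GC 1, GC 2 and MG 2 together (541 at an unadjusted p below 0.05 in edgeR, 1 GC library left); leaving out 1 library at a time gave 21 to 290. Intron calls, 70, were 438, 181, 162 and 0 (535 unadjusted) under the same settings, 120 when scaled by exon counts and 42 among 5256 genes that overlap no other row, where fewer genes were tested; leaving out 1 library gave 8 to 161. Genes whose intron and exon changes differ, 3, numbered 96, 11, 17 and 0 (291 unadjusted) under those 4 settings, 7 on a common scale, 5 with the library number as a replicate block and 0 with limma on log2 ratios (704 unadjusted, 17 by DESeq2); leaving out 1 library gave 0 to 12. Of the 3, DESeq2 also called Got1 and Mup7. Apart from fewer genes or samples in a fit, the cause of these shifts was not tested.

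The replicate block gave 158 exon and 82 intron calls; same-numbered libraries correlated at -0.10, 0.48 and 0.33 in exon counts and at -0.05, -0.02 and -0.02 in intron reads, so the numbers are not shown to pair them. RLE scaling, a filter of 1 CPM in 3 libraries, unique exon reads, leaving out mitochondrial rows and junction reads alone kept the exon count within 1.5 times, at 169, 170, 167, 174 and 141; of the 165 genes, 96 were among the 141 from junction reads. The intron share difference ran from -0.43 (without MG 1) to 1.94 points (without MG 3), and was -1.01 with mitochondrial rows included. Of the values of named genes past the threshold, 1368 of 1910 in exon counts, 805 of 1231 in intron reads and 39 of 58 differences stayed past it under an alternative, and 0 reversed. All 165 exon calls and all 70 intron calls had groups without overlap, so a reversal was hardly possible for them. Of the 137 exon-called genes tested in intron reads, 40 had a mean below 50 intron reads, which limits their precision.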
